A study of Mus musculus with 36 samples.

Results

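The cholesterol and lipid synthesis genes are a set of 38 mouse genes followed here across the differentiation of embryonic stem cells (ESCs) that lack or carry TET1, a dioxygenase that oxidizes 5-methylcytosine. They were chosen by name: a gene is a member when its symbol in the deposited count and TPM tables equals one of 38 listed symbols, and all 38 were found among the 54281 genes of those tables and were abundant enough to be tested. By role, 8 encode enzymes of the mevalonate arm, 11 enzymes of the sterol arm, 5 parts of the SREBP control system, 7 enzymes of fatty acid synthesis, 5 sterol transporters and 2 the LXR receptors. The cells were put through a monolayer protocol towards anterior neural progenitors, in serum-free N2B27 medium with bFGF until day 3, and RNA was sequenced from 36 libraries in 3 experiments.

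Tet1 knockout (KO) cells were the lines KO1 and KO15, and wild-type (WT) cells the lines WT7 and WT34. All 4 are male (B6 x 129S6)F1 lines derived from blastocysts, and the KO carries the Tet1tm1Koh allele. KO and WT cells had 2 libraries each on days 0, 1, 2 and 4, 4 each on day 3 and 3 each on day 5. The catalytic mutant (MUT) lines CM59 and CM69 are single clones made from WT7 by Cas9 homology-directed repair, with 1 library each on days 3 and 5. WT70, a line labelled WT, was the control in the same experiment, with 1 library on each of those days. Day 0 cells had been kept with serum and LIF on feeders, which were depleted before plating, so the change of medium and the start of differentiation cannot be told apart. Each library held 10139305 to 26307179 estimated counts.

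Cholesterol is built from acetyl-CoA. The mevalonate arm joins acetyl units into isoprenoid units and farnesyl diphosphate, and the sterol arm couples these to squalene, closes the ring to lanosterol and trims it to cholesterol. The transcription factors SREBP1 and SREBP2, encoded by Srebf1 and Srebf2, sit in the endoplasmic reticulum with their escort SCAP, and INSIG proteins hold the complex there while sterols are plentiful. When sterols run low the complex leaves for the Golgi, the factors are cut free and the genes of synthesis are transcribed, with NF-Y as a common partner at their promoters. LXR receptors respond to oxysterols and turn on the exporters Abca1 and Abcg1.

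Promoter windows of 300 bases, 250 before and 50 after the annotated start, were found for 30 of the 38 members in the RefSeq table (build GRCm38.p6). Each window was searched on both strands for exact matches to 4 motifs: the sterol regulatory element TCACNCCAC, the NF-Y box CCAAT, the Sp1 box GGGCGG and the LXR element (a direct repeat of the nuclear receptor half-site). The NF-Y box was in 23 of the 30 members (76.7%), against 41.1% of 27025 genes with a window. The Sp1 box was likewise in 23 members (76.7%), against 38.2% of all genes. The sterol regulatory element in this spelling was found in 1 member, Hmgcs1 (3.3%), against 1.44% of all genes, and the LXR element in 0 members, against 0.0148%. A gene was counted when any of its windows held the motif, and the 30 members had 39 windows. The 27025 genes were not limited to those tested for expression, while all members were tested. Matches are a description of letters only. The windows of Hmgcs1, Mvd and Msmo1 are shown because these 3 genes carry the comparisons between genotypes that follow, and that of Acss2 because its fold change on day 5 was the lowest of the members. Capitals mark the NF-Y box on either strand (CCAAT or ATTGG) and, in Hmgcs1, also the single sterol regulatory element, TCACCCCAC, whose first base lies 137 bases before the start. Hmgcs1 is on the plus strand at chr13:119690101-119690400, Mvd on the minus strand at chr8:122443373-122443672, Msmo1 on the minus strand at chr8:64733529-64733828 and Acss2 on the plus strand at chr2:155517793-155518092.
Hmgcs1: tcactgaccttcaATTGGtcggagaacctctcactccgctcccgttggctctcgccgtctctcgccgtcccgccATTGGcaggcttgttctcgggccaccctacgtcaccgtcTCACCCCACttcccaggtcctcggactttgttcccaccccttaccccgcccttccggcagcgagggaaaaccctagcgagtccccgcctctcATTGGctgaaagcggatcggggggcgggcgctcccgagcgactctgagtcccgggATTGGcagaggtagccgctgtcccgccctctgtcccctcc
Mvd: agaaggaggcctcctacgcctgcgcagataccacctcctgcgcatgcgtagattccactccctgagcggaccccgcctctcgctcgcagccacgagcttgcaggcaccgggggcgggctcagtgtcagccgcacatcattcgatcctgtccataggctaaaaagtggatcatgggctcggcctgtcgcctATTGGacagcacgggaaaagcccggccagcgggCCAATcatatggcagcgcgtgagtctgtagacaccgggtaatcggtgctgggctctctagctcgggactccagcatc
Msmo1: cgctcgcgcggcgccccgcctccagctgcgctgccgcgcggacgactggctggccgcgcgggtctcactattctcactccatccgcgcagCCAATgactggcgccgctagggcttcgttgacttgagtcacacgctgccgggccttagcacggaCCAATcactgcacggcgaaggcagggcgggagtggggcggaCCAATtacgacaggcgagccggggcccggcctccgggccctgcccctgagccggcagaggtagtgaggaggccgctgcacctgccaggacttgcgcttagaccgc
Acss2: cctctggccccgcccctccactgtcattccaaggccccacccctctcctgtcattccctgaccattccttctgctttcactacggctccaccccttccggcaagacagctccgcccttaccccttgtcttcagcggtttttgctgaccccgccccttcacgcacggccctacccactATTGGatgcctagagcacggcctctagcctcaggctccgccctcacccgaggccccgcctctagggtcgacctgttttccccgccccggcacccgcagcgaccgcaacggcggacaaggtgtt
The Hmgcs1 window held 4 NF-Y boxes, that of Msmo1 held 3, that of Mvd held 2 and that of Acss2 held 1. No base was shared by matches of different motifs in any member window.

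Tet1 was lower in KO libraries, at 28.9 and 33.3 CPM (counts scaled to library size) on day 0 against 1308 and 1432 CPM in WT cells, and from 47.19 to 83.1 CPM on day 5 against 108.1 to 181.8 CPM. The cells also took different paths. On day 5 the summed level of 5 mesoderm markers was 195.8 to 290.4 CPM in KO libraries against 12.52 to 43.57 CPM in WT libraries, that of 5 endoderm markers 260.8 to 277.7 against 9.463 to 78.37 CPM, and that of 5 neural markers 10.63 to 28.86 against 128.8 to 189.6 CPM. On day 3 the sum of 4 primitive streak markers was 379.6 to 676.1 CPM in KO against 11.58 to 24.31 CPM in WT libraries. None of these markers was at 0 in every library of a genotype on days 3 or 5. In bulk RNA, fewer cells of a type and less RNA per cell cannot be told apart, and the part of these cell types in the results on lipid genes was not tested. WT day 1 replicate 1 stood apart, with 5.68% of its counts from mitochondrial genes against a median of 1.9%. WT day 5 replicate 3, the single WT library of the second experiment on that day, also stood apart, with 97.86 CPM of primitive streak markers against 13.63 and 13.6 CPM in the other WT libraries of day 5, and it held the highest endoderm and mesoderm sums among them.

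Loss of Tet1 went with lower levels of many cholesterol synthesis genes on days 3 and 5. Fewer members passed on the other days, which had fewer libraries, so the counts of calls cannot be set against each other between days. Genes are said to have risen, fallen or passed where the adjusted p of edgeR's quasi-likelihood test, corrected over all 21601 tested genes, was under 0.05. On day 3, 16 members were lower in KO than in WT cells and 2 higher, when 9.50% of all tested genes were lower and 6.25% higher (15.8% in all). On day 5, 16 were lower and 3 higher, against 16.2% and 15.0% of all genes (31.2% in all). The median log2 fold change of the 38 members was -0.13 on day 3 and -0.19 on day 5, and that of all tested genes 0.01 on day 3 and -0.01 on day 5. On days 0, 1, 2 and 4 the median of the members was 0.08, -0.03, -0.19 and 0.07. The day 2 median was thus below that of day 3, with 6 of the 38 values above 0. The changes were small: on day 3 no member passed with a log2 fold change beyond 1 in either direction (3.96% of all genes did), and on day 5 Acss2 fell and Abca1 rose beyond it (11.7%).

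**Figure D1:**
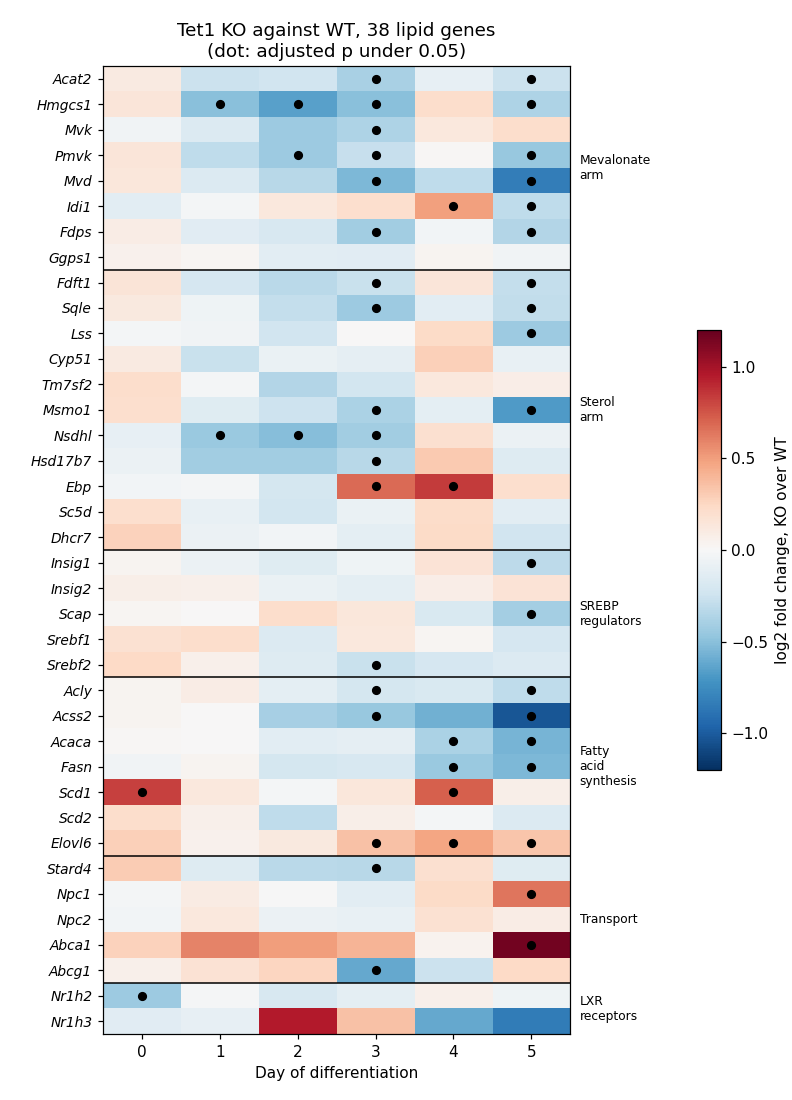
Log2 fold change of KO over WT cells for the 38 members (rows, grouped by role) on each day (columns), in blue where lower and red where higher in KO cells, with a dot where the adjusted p was under 0.05. The mevalonate and sterol arms, with 8 and 11 of the 38 members, hold 11 of the 16 members lower on day 3 and 10 of the 16 lower on day 5.

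In the mevalonate arm, 6 of 8 members fell on day 3 and 6 on day 5, with arm medians of -0.38 and -0.33 on the log2 scale. Hmgcs1, the synthase that makes HMG-CoA, had 557.2, 563.4, 505.9 and 546.2 CPM in the 4 KO libraries of day 3, against 799.9, 818.6, 724.5 and 731.6 CPM in the WT libraries. Every KO library lay below every WT library, and the log2 fold change was -0.50 ± 0.05 (SE, adjusted p = 1.56e-07). On day 5 Hmgcs1 had 736.5, 817.1 and 713.3 CPM in KO against 964.1, 1040 and 920.8 CPM in WT cells, again without overlap (-0.37 ± 0.06, adjusted p = 3.21e-05). Mvd, which decarboxylates mevalonate diphosphate, had 52.11, 60.95 and 55.18 CPM in KO against 101.8, 104.2 and 93 CPM in WT cells on day 5 (-0.83 ± 0.12, adjusted p = 6.96e-06), the lowest fold change in this arm. On day 3 its fold change was -0.54. Fdps, which makes farnesyl diphosphate, had 264.4, 283, 280.3 and 319.2 CPM in KO against 383.2, 385.2, 381.3 and 387.2 CPM in WT cells on day 3 (-0.42 ± 0.08, adjusted p = 0.000334). Its processed pseudogenes could share reads with it. Acat2, the thiolase of the first step, and Pmvk, the phosphomevalonate kinase, fell on both days. Mvk, the mevalonate kinase, fell on day 3 (-0.37), and its value on day 5 was 0.21, which did not pass. Idi1, the isomerase, fell on day 5 (-0.31) with overlapping libraries. Ggps1, which leads to geranylgeranyl diphosphate, did not pass on either day.

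In the sterol arm, 5 of 11 members fell and 1 rose on day 3, and 4 fell on day 5. Sqle, the squalene monooxygenase, had 243.6, 243.2, 225.3 and 257.2 CPM in KO against 357, 343.6, 295.8 and 319.4 CPM in WT cells on day 3 (-0.44 ± 0.06, adjusted p = 2.84e-06). It had 178.2, 190.9 and 174.5 CPM in KO against 219.5, 230.7 and 215.2 CPM in WT cells on day 5 (-0.29 ± 0.06, adjusted p = 0.000986), so the groups did not overlap on either day. Msmo1, the sterol C4-methyl oxidase, had 235, 226.9, 224.1 and 262.2 CPM in KO against 310, 320.3, 296.6 and 305.4 CPM in WT cells on day 3 (-0.38 ± 0.07, adjusted p = 0.000165). On day 5 Msmo1 had 182.8, 201.2 and 155.8 CPM in KO against 294.4, 298.4 and 269.9 CPM in WT cells (-0.68 ± 0.08, adjusted p = 1.37e-07), the smallest p of any member on that day. Fdft1, the squalene synthase, fell on both days. Nsdhl and Hsd17b7, which act with Msmo1 in removing the C4 methyl groups, fell on day 3 only among these days, and Lss, which closes the ring, on day 5 only. Cyp51, Tm7sf2, Sc5d and Dhcr7 did not pass on either day. Ebp, the sterol isomerase, went the other way, with 20.01, 22.2, 21.66 and 23.51 CPM in KO against 11.93, 13.74, 15.38 and 13.67 CPM in WT cells on day 3 (0.68 ± 0.11, adjusted p = 0.000123). On day 5 Ebp had 15.35, 16.7 and 11.06 CPM in KO against 12.04, 11.28 and 14.57 CPM in WT cells, and the libraries overlapped.

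Among the SREBP regulators, 1 of 5 fell on day 3 and 2 on day 5. Srebf2, the main activator of cholesterol synthesis, had 464.4, 457.8, 419.3 and 413.3 CPM in KO against 550.8, 572.8, 488.5 and 507.3 CPM in WT cells on day 3 (-0.27 ± 0.07, adjusted p = 0.00528). Its value on day 5, -0.17 ± 0.08, did not pass (adjusted p = 0.112). Srebf1, tied more to fatty acid synthesis, had 0.12 ± 0.13 on day 3 and -0.20 ± 0.15 on day 5 (adjusted p = 0.613 and 0.352). Insig1, itself a target of SREBP, had -0.05 ± 0.09 on day 3, which did not pass (adjusted p = 0.822). On day 5 Insig1 had 155.1, 183.6 and 100.3 CPM in KO against 211.4, 225.5 and 114.5 CPM in WT cells (-0.31 ± 0.11, adjusted p = 0.0285). The lowest library of each genotype on that day was the one from the second experiment, the groups overlapped, and the call was lost without any of 4 of the 6 day 5 libraries (KO replicates 1 and 3, WT replicates 1 and 2), where the adjusted p reached 0.148. Scap fell on day 5 (-0.40) and Insig2 did not pass.

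In fatty acid synthesis, 2 of 7 members fell and 1 rose on day 3, and 4 fell and 1 rose on day 5. Fasn, the fatty acid synthase, had 678.6, 774.1 and 749.6 CPM in KO against 952.1, 1010 and 1238 CPM in WT cells on day 5 (-0.53 ± 0.10, adjusted p = 0.000108), with no overlap. On day 3 Fasn had 1583, 1622, 1518 and 1706 CPM in KO against 1759, 1817, 1896 and 1857 CPM in WT cells, and the difference of -0.19 ± 0.08 did not pass (adjusted p = 0.143). Acaca, which makes malonyl-CoA, had 171.4, 199.6 and 181.5 CPM in KO against 247.5, 262.4 and 302.6 CPM in WT cells on day 5 (-0.56 ± 0.07, adjusted p = 1.61e-06). Acss2, the cytosolic acetyl-CoA synthetase, had 9.903, 10.43 and 10.68 CPM in KO against 15.82, 17.69 and 31.29 CPM in WT cells on day 5 (-1.03 ± 0.17, adjusted p = 2.72e-05). The WT libraries of Acss2 were spread, and the fold change was -0.71 within the first experiment and -1.55 between the single libraries of the second. Its highest WT value came from WT replicate 3, which stood apart in its primitive streak markers, and without that library the fold change was -0.71 (adjusted p = 0.00063). Acly, the citrate lyase, fell on both days (-0.21 and -0.31). Elovl6, which lengthens saturated fatty acids, was the exception, with 155.5, 167.8 and 196.3 CPM in KO against 119.8, 137.8 and 153.4 CPM in WT cells on day 5 (0.34 ± 0.08, adjusted p = 0.00201) and 0.35 ± 0.07 on day 3 (adjusted p = 0.000717). The stearoyl-CoA desaturases Scd1 and Scd2, paralogs that could share reads, did not pass on these days: Scd1 had 0.14 ± 0.06 and 0.07 ± 0.07 (adjusted p = 0.137 and 0.485), and Scd2 had 0.07 ± 0.08 and -0.17 ± 0.09 (adjusted p = 0.624 and 0.168).

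Of the 5 sterol transporters, 2 fell on day 3 and 2 rose on day 5. Npc1, which exports cholesterol from late endosomes and lysosomes, had 207, 181.4 and 172.9 CPM in KO against 121.5, 132.6 and 106 CPM in WT cells on day 5 (0.64 ± 0.09, adjusted p = 2.18e-06), with no overlap. On day 3 Npc1 had -0.13 ± 0.08 (adjusted p = 0.296). Abca1, an exporter of cellular cholesterol, had 4.918, 8.234 and 14.52 CPM in KO against 3.028, 2.859 and 6.34 CPM in WT cells on day 5 (1.16 ± 0.25, adjusted p = 0.000692). The highest Abca1 library of each genotype came from the second experiment, so the groups overlapped, and the fold change was 1.18 within the first experiment and 1.19 within the second. Without WT replicate 3 it was 1.41, and Abca1 still passed. Its level on day 5 was low, at a mean of 0.529 ± 0.264 TPM (SD) in KO and 0.345 ± 0.0409 TPM in WT cells. In proportion, the difference in TPM was smaller than that in CPM. On day 3 Abca1 had 0.41 ± 0.21 (adjusted p = 0.238). Abcg1, another exporter, had 12.65, 13.16, 13.27 and 14.9 CPM in KO against 24.42, 21.29, 19.96 and 17.29 CPM in WT cells on day 3 (-0.61 ± 0.13, adjusted p = 0.00165), the lowest fold change of the members on that day. On day 5 Abcg1 had 5.746 to 8.057 CPM in KO against 5.563 to 6.435 CPM in WT cells (0.24 ± 0.17, adjusted p = 0.334). Stard4, a soluble sterol carrier, had 140.4, 137.1, 141.2 and 146.9 CPM in KO against 174.3, 185.6, 173 and 178.2 CPM in WT cells on day 3 (-0.33 ± 0.07, adjusted p = 0.00112) and -0.14 ± 0.08 on day 5 (adjusted p = 0.196). Npc2 and both LXR receptors, Nr1h2 and Nr1h3, did not pass on days 3 or 5, and Nr1h3 had at most 1.984 CPM in KO and 1.726 CPM in WT libraries of these days.

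**Figure D2:**
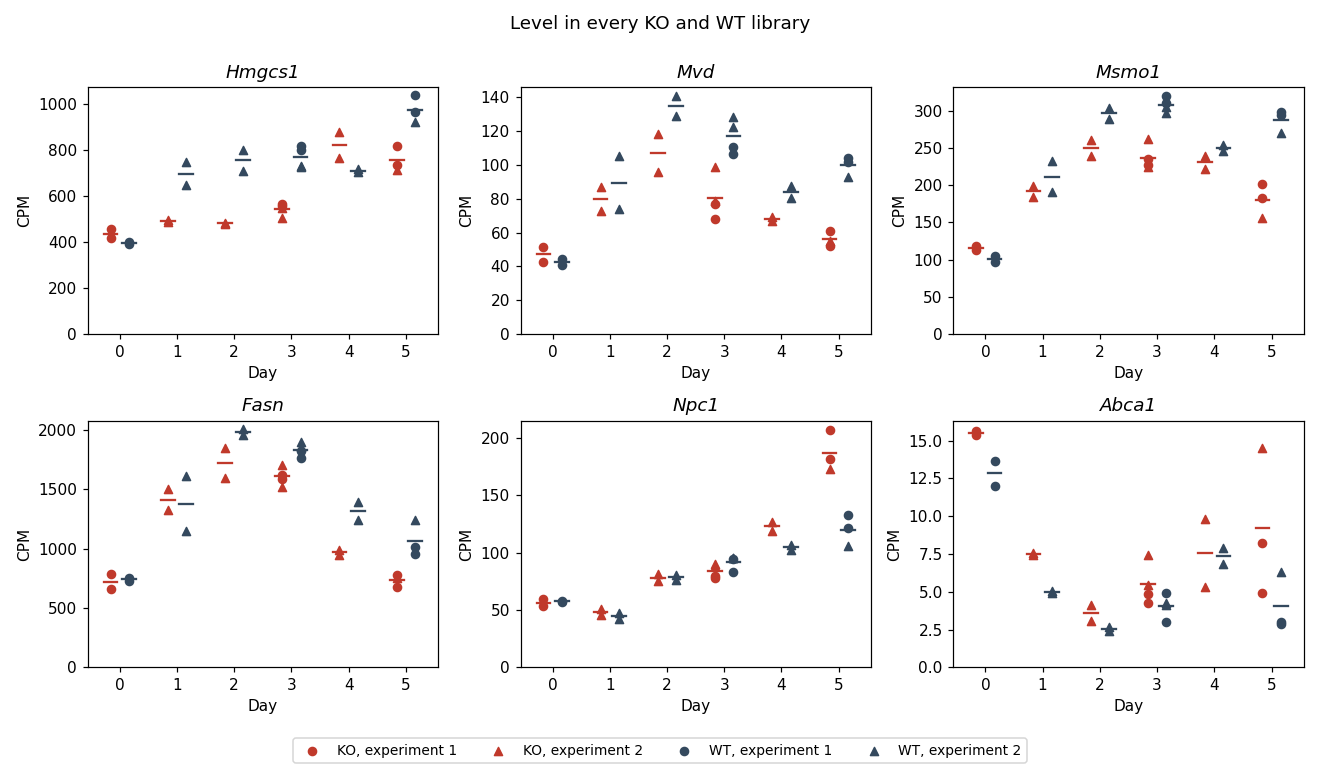
Level (CPM) of 6 members in every KO (left, red) and WT (right, dark) library by day, with circles for the first and triangles for the second experiment and a bar at the mean. KO libraries lie below WT libraries for Hmgcs1 on days 1, 2, 3 and 5. They lie above on days 0 and 4, where the difference did not pass. For Npc1 the KO libraries lie above on day 5.

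On day 0, 1 member was higher and 1 lower in KO than in WT cells, when 2.37% of all genes were higher and 1.62% lower. Scd1 had 232.2 and 235.4 CPM in KO against 126.7 and 138.7 CPM in WT cells (0.82 ± 0.09, adjusted p = 3.23e-06), and Nr1h2 had 50.48 and 47.52 CPM in KO against 69.3 and 63.84 CPM in WT cells (-0.44 ± 0.10, adjusted p = 0.0146). The summed level of 5 feeder fibroblast markers was 67.55 to 86.71 CPM in KO against 83.35 to 87.45 CPM in WT libraries of that day. The call on Nr1h2 was lost, leaving 1 member, when either KO library or replicate 1 of WT was left out, while Scd1 passed in each of the 4 fits that left out a library of that day.

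On day 1, 2 members were lower in KO cells and 0 higher (1.65% of all genes were lower and 1.24% higher), and on day 2, 3 were lower and 0 higher (0.847% and 0.875%). Hmgcs1 had 497.1 and 488.2 CPM in KO against 746.3 and 646.2 CPM in WT cells on day 1 (-0.50 ± 0.07, adjusted p = 0.000295), and 479.9 and 483.7 CPM in KO against 801.7 and 707.9 CPM in WT cells on day 2 (-0.65 ± 0.07, adjusted p = 7.18e-06). Nsdhl had 58.35 and 51.62 CPM in KO against 81.85 and 68.07 CPM in WT cells on day 1 (-0.45 ± 0.11, adjusted p = 0.0307), and 45.85 and 42.79 CPM in KO against 64.38 and 61.87 CPM in WT cells on day 2 (-0.51 ± 0.11, adjusted p = 0.0179). Pmvk had 66.94 and 64.89 CPM in KO against 82.85 and 95.97 CPM in WT cells on day 2 (-0.44 ± 0.11, adjusted p = 0.0364). With 2 libraries a group, most fits that left 1 out lost the calls on Nsdhl and Pmvk. Each such fit leaves a single library in 1 group. In those fits the fold change of Nsdhl ran from -0.57 to -0.31 on day 1 and from -0.56 to -0.46 on day 2. That of Pmvk ran from -0.54 to -0.33 on day 2. The count on day 1 was 1 when either KO library or replicate 1 of WT was left out, 5 without WT replicate 2, and 1 with the cell line added to the model. The count on day 2 was 1 without replicate 1 of KO and 1 without either WT library. Without replicate 2 of KO the count was 3, of which 1 was shared with the main fit. Nsdhl and Pmvk each lost the day 2 call in all 4 of these fits.

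On day 4, 4 members were higher and 2 lower in KO cells (7.68% of all genes were higher and 8.74% lower). Hmgcs1 had 879.8 and 764.6 CPM in KO against 703.7 and 716.3 CPM in WT cells, and its difference did not pass. Idi1 had 195.4 and 173.6 CPM in KO against 128.1 and 133.8 CPM in WT cells (0.50 ± 0.11, adjusted p = 0.00173). Ebp had 21.54 and 27.78 CPM in KO against 13.73 and 13.8 CPM in WT cells (0.84 ± 0.16, adjusted p = 0.000567). Scd1 had 432.6 and 420.2 CPM in KO against 259.5 and 260.2 CPM in WT cells (0.71 ± 0.09, adjusted p = 1.37e-06), and Elovl6 had 186.8 and 178.9 CPM in KO against 133.9 and 129.5 CPM in WT cells (0.47 ± 0.10, adjusted p = 0.00109). Fasn had 990.9 and 945.4 CPM in KO against 1390 and 1239 CPM in WT cells (-0.44 ± 0.12, adjusted p = 0.00975), and Acaca had 275.8 and 253.1 CPM in KO against 349.1 and 338.1 CPM in WT cells (-0.38 ± 0.09, adjusted p = 0.00367). The call on Fasn was lost in 3 of the 4 fits that left out a day 4 library (either KO library or replicate 1 of WT, adjusted p up to 0.164) and that on Acaca in 2 (replicate 2 of KO or replicate 1 of WT, up to 0.103), so that 0 members were lower in those 2 fits. All the day 4 libraries came from the second experiment. In a fit of the day 4 libraries alone 16 members passed, 11 higher and 5 lower, and the share of all genes that passed in that fit was not counted.

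Days 3 and 5 were sampled in both the first and the second experiment. On day 3, 20 members passed in the first experiment alone (2 higher, 18 lower, median -0.18) and 3 in the second alone (2 higher, 1 lower, median -0.08), with 2 KO and 2 WT libraries in each. The share of all tested genes that passed in fits of 1 experiment was not counted on either day. The counts from those fits therefore cannot be read as particular to the members. Hmgcs1 fell in both (-0.53 and -0.44, adjusted p = 8.75e-05 and 0.00977), and Ebp and Elovl6 rose in both. Sqle, Stard4, Srebf2, Abcg1, Msmo1 and Fdps had the same direction in both and did not pass in the second, where their log2 fold changes were -0.32, -0.26, -0.23, -0.37, -0.28 and -0.33. On day 5, 21 members passed in the first experiment alone (5 higher, 16 lower) and 9 in the second (3 higher, 6 lower). In the second experiment each genotype had 1 library on day 5, whose spread was taken from the groups of the other days, so this count does not rest on replicates of that day. Across genotypes and days the second experiment differed from the first in 14 members, 5 higher and 9 lower, when 14.4% of all genes were higher and 11.9% lower: Insig1 (-0.69 ± 0.07, adjusted p = 2.6e-07), Hsd17b7 (-0.66 ± 0.07, adjusted p = 2.83e-07) and Idi1 (-0.48 ± 0.06, adjusted p = 2.04e-06) were the lowest and Abca1 (0.64 ± 0.16, adjusted p = 0.00435) the highest. Fdft1 (-0.27 ± 0.05) was lower, and Tm7sf2 (0.44 ± 0.09), Mvk (0.26 ± 0.08) and Acat2 (0.19 ± 0.06) were higher. Acat2 lost its call without WT day 5 replicate 3, and Mvk without that library or KO day 5 replicate 3 (adjusted p up to 0.187 and 0.147).

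In both genotypes many synthesis genes were higher on day 1 than on day 0, and many fell between days 3 and 5. Between day 0 and day 1, 25 members rose and 4 fell in KO cells (15.6% of all genes rose and 17.7% fell), and 25 rose and 5 fell in WT cells (16.1% and 15.2%). All 8 members of the mevalonate arm rose in each genotype, with medians of 0.62 in KO and 0.96 in WT cells. Hsd17b7, a ketosteroid reductase of the sterol arm, had 41.3 and 35.39 CPM in KO cells of day 1 against 19.36 and 17.83 CPM on day 0 (1.70 ± 0.15, adjusted p = 5.78e-09), and 48.62 and 53.5 CPM in WT cells of day 1 against 19.84 and 19.33 CPM on day 0 (2.05 ± 0.15, adjusted p = 3.44e-10). Idi1 rose by 1.51 ± 0.12 in KO and 1.42 ± 0.12 in WT cells on the log2 scale, and Scd1 by 1.11 ± 0.10 in KO and 1.80 ± 0.10 in WT cells. In KO cells Lss (1.29 ± 0.12) and in WT cells Stard4 (1.34 ± 0.11) were also among the 4 risen members with the smallest p. Abca1 had 7.445 and 7.553 CPM in KO cells of day 1 against 15.66 and 15.39 CPM on day 0 (-1.69 ± 0.33, adjusted p = 0.000256), and 5.021 and 4.935 CPM in WT cells of day 1 against 12.01 and 13.65 CPM on day 0 (-2.01 ± 0.34, adjusted p = 6.1e-05). Ebp fell by 1.04 in KO and 1.05 in WT cells, Acss2 by 0.99 and 0.95, and Npc2, the lumenal partner of NPC1, by 0.49 and 0.65. The call on Acss2 in WT cells was lost without WT day 1 replicate 1 (adjusted p = 0.0654), the library with the high mitochondrial share. Day 0 was sampled only in the first experiment and day 1 only in the second, so these values rest on the difference between experiments estimated on days 3 and 5. That difference was -0.66 for Hsd17b7, -0.48 for Idi1 and 0.64 for Abca1. Correcting for it makes their fold changes here larger in size than their uncorrected levels give.

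By day 3, 29 members stood above and 2 below day 0 in KO cells (22.8% of all genes stood above and 20.4% below), and 30 above and 5 below in WT cells (24.3% and 21.2%). The number that rose beyond a log2 fold change of 1 was 11 in KO and 18 in WT cells, when 10.8% of all genes in KO and 12.9% in WT cells did so. Stard4 rose by 1.21 ± 0.09 in KO and 1.85 ± 0.10 in WT cells on the log2 scale, and Msmo1 by 1.08 ± 0.09 and 1.65 ± 0.09. Scd2 (1.39 ± 0.10) and Hsd17b7 (1.52 ± 0.13) were among the other risen members with the smallest p in KO cells, and Scd1 (1.37 ± 0.08) and Sqle (1.28 ± 0.08) in WT cells. Insig1, with 108.3, 128.7, 75.67 and 85.56 CPM in KO cells of day 3 against 159.2 and 175.5 CPM on day 0, was besides Abca1 the other member that fell there (-0.43 ± 0.12, adjusted p = 0.0047), and that call was lost without KO day 0 replicate 2 (adjusted p = 0.0719). Abca1 fell by 1.84 ± 0.25 in KO and 1.97 ± 0.26 in WT cells. Insig1 also fell in WT cells, with 112.6, 138, 69.26 and 93.36 CPM on day 3 against 160.4 and 166.9 CPM on day 0 (-0.35 ± 0.12, adjusted p = 0.0186). Ebp (-0.70 ± 0.15), Nr1h2 (-0.45 ± 0.09) and Elovl6 (-0.27 ± 0.09) fell in WT cells, and the call on Elovl6 was lost without WT day 0 replicate 2 (adjusted p = 0.129).

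Between day 1 and day 3 members moved in both directions. In KO cells 15 members rose and 9 fell (24.2% of all genes rose and 21.1% fell), and in WT cells 20 rose and 8 fell (26.6% and 22.9%). Insig1 fell by 1.07 ± 0.12 in KO and 1.10 ± 0.12 in WT cells, Idi1 by 0.97 ± 0.09 and 1.19 ± 0.09, Dhcr7, the reductase of the last step, by 0.74 ± 0.12 and 0.69 ± 0.12, and Fdft1 by 0.71 ± 0.08 and 0.65 ± 0.08. Npc1 rose by 0.81 ± 0.10 in KO and 1.04 ± 0.10 in WT cells, Npc2 by 0.80 ± 0.09 and 1.01 ± 0.09, and Scd2 by 0.86 ± 0.10 in each. Ebp rose by 1.05 ± 0.16 in KO cells and Acss2 by 1.40 ± 0.21 in WT cells.

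From day 3 to day 5, 8 members rose and 21 fell in KO cells (24.1% of all genes rose and 26.6% fell), and 8 rose and 16 fell in WT cells (20.1% and 22.8%). Fasn fell by 1.11 ± 0.09, Acaca by 0.90 ± 0.07, Pmvk by 0.80 ± 0.09 and Scap by 0.66 ± 0.09 in KO cells. Abcg1 fell by 1.79 ± 0.16, Mvk by 1.23 ± 0.12, Nsdhl by 0.82 ± 0.09 and Sqle by 0.58 ± 0.06 in WT cells. Hmgcs1 rose by 0.46 ± 0.06 in KO and 0.32 ± 0.06 in WT cells, while 6 of the 8 members of its arm fell in KO and 4 in WT cells. Dhcr7 rose by 0.46 ± 0.10 in KO and 0.56 ± 0.10 in WT cells, and by limma on TPM its KO value turned direction (-0.11, adjusted p = 0.648). Npc2 rose by 0.88 ± 0.07 in KO and 0.69 ± 0.07 in WT cells, Npc1 by 1.15 ± 0.08 in KO cells and Insig1 by 0.69 ± 0.10 in WT cells.

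**Figure D3:**
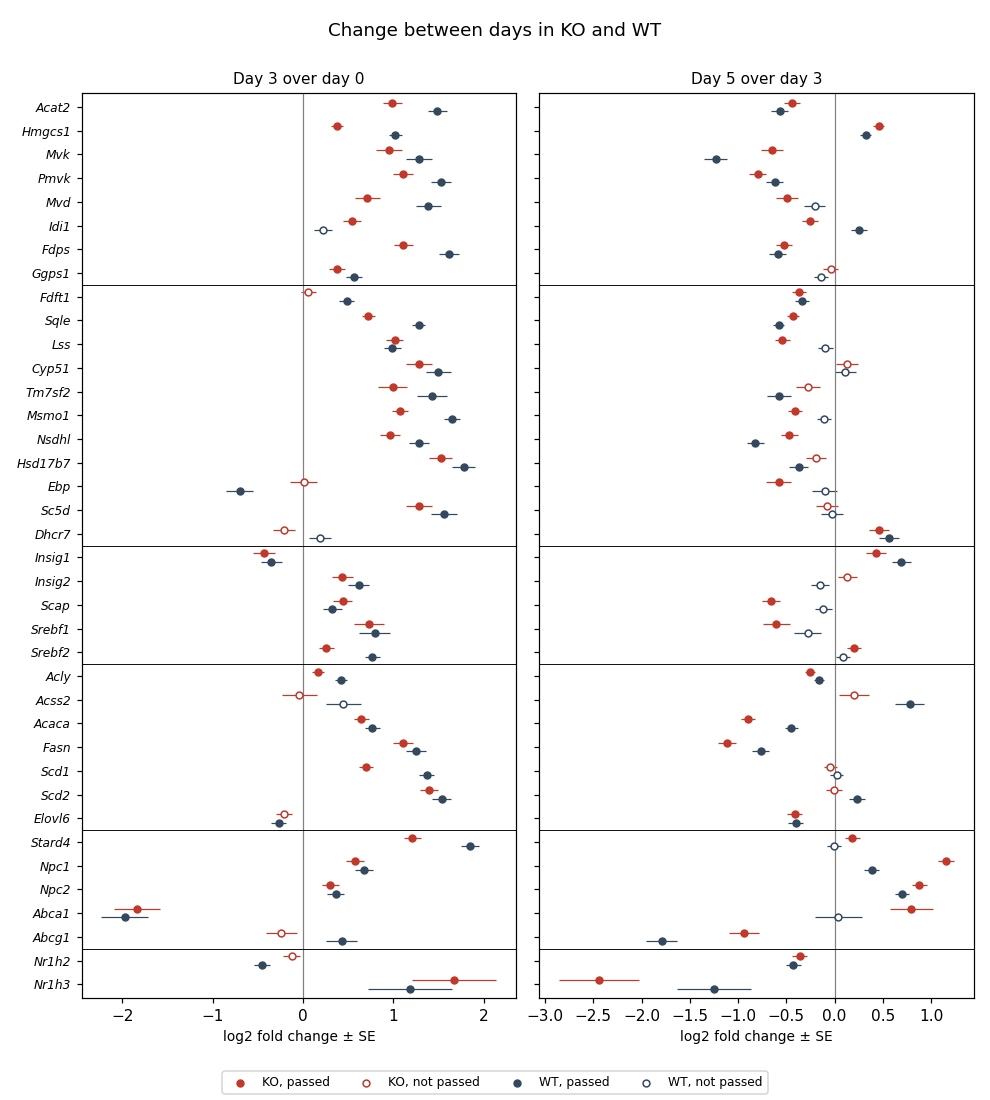
Log2 fold change (± SE) of each member between days in KO (red) and WT (dark) cells, day 3 over day 0 on the left and day 5 over day 3 on the right, with filled points where the adjusted p was under 0.05. Of the 38 members, 29 in KO and 30 in WT cells rose by day 3, and 21 in KO and 16 in WT cells fell between days 3 and 5.

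Whether the genotypes changed differently was tested as an interaction. Between days 0 and 3 the change was lower in KO than in WT cells for 10 members and higher for 1 (4.40% of all genes were lower and 2.79% higher). Scd1 had an interaction of -0.68 ± 0.11 (adjusted p = 0.000269), Hmgcs1 of -0.65 ± 0.09 (adjusted p = 9.19e-05), Stard4 of -0.64 ± 0.12 (adjusted p = 0.00188) and Sqle of -0.56 ± 0.10 (adjusted p = 0.000729). An interaction holds the genotype difference of both days. Scd1 was higher in KO cells on day 0 (0.82), and its day 3 difference of 0.14 did not pass. For Stard4 the day 3 difference was -0.33. Acat2, Mvd, Fdps, Fdft1, Msmo1 and Srebf2 were the other members with a lower change, and Ebp had the higher one (0.71 ± 0.20, adjusted p = 0.0287), which was lost without KO day 0 replicate 1 or 2, WT day 0 replicate 1 or KO day 3 replicate 4. In KO cells Hmgcs1 had 505.9 to 563.4 CPM on day 3 against 418.2 and 455.3 CPM on day 0, while WT cells had 724.5 to 818.6 CPM on day 3 against 390 and 399.6 CPM on day 0. The count of 11 was 6 without KO day 0 replicate 2 or WT day 0 replicate 1, and 7 without WT day 0 replicate 2 or KO day 3 replicate 3. Between days 3 and 5 the change was higher in KO cells for 4 members and lower for 5 (11.4% of all genes were higher and 11.1% lower). Npc1 had an interaction of 0.77 ± 0.11 (adjusted p = 1.74e-05), Abcg1 of 0.85 ± 0.22 (adjusted p = 0.00522) and Mvk of 0.58 ± 0.16 (adjusted p = 0.00999). Scap (-0.54 ± 0.13, adjusted p = 0.00222), Idi1 (-0.51 ± 0.12, adjusted p = 0.00203), Acaca (-0.45 ± 0.10, adjusted p = 0.00117) and Lss (-0.44 ± 0.11, adjusted p = 0.00381) were lower, as was Msmo1. Nsdhl passed narrowly (0.35 ± 0.12, adjusted p = 0.0431) and lost the call in 8 of the fits that left out 1 library.

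In the catalytic mutant no member passed against WT70 on day 3 or on day 5, when 0.199% and 3.25% of all genes did. By DESeq2 and by limma on TPM the counts were also 0 on both days. At an unadjusted p under 0.05 there were 4 members on day 3, all higher, and 4 on day 5, 1 higher and 3 lower. WT70 had 1 library a day, whose spread was taken from the remaining groups, and the standard errors of the members ran from 0.0874 to 0.521 on day 3 and from 0.0872 to 0.611 on day 5. The absence of calls did not hold in every alternative. At least 1 member passed on each day without a filter on low counts, with all WT libraries as control, and in fits of the compared libraries alone. In the fits of the compared libraries alone the spread between the 2 MUT libraries stood for both groups, since the single WT70 library has none of its own. The share of all genes was counted neither for these alternatives nor at the unadjusted p, so neither can be read as a result about the members. Hmgcs1 had 978.3 and 930.3 CPM in MUT against 876 CPM in WT70 cells on day 3, and 1297 and 1302 CPM against 1262 CPM on day 5. Msmo1 had 321.8 and 325 CPM in MUT against 348 CPM in WT70 cells on day 5, and Npc1 had 113 and 97.54 CPM in MUT against 119.5 CPM in WT70 cells. Mvd (-0.43 ± 0.17, adjusted p = 0.208) and Acss2 (-0.52 ± 0.23, adjusted p = 0.269) had the smallest p on day 5, and neither passed.

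The difference between the KO effect and the MUT effect was itself tested. On day 3 Hmgcs1 had a difference of -0.62 ± 0.11 (adjusted p = 0.00294), the 1 member that passed, when 0.278% of all genes were lower and 0.319% higher. On day 5 Hmgcs1 (-0.41 ± 0.11, adjusted p = 0.0235), Msmo1 (-0.57 ± 0.14, adjusted p = 0.0114) and Npc1 (0.82 ± 0.15, adjusted p = 0.00111) passed, when 3.63% of all genes were lower and 2.31% higher. The count of 3 was 1 without MUT day 5 replicate 2, 5 without WT day 5 replicate 3 and 6 without KO day 5 replicate 2. Hmgcs1 on day 5 also lost its call without KO replicate 1, WT replicate 2 or MUT replicate 1 (adjusted p up to 0.0833), and Msmo1 without MUT replicate 2 (adjusted p = 0.0501). All these differences rest on the single WT70 library of each day, which no fit left out. For the other members the effects of KO and MUT were not shown to differ, nor to be alike. On day 5 the neural marker sum was 154.3 to 187.5 CPM in MUT against 188.7 CPM in WT70 cells, while the endoderm sum was 102.9 to 114.5 against 24.53 CPM, the mesoderm sum 76.67 to 77.84 against 32.2 CPM and the primitive streak sum 94.51 to 113.2 against 14.8 CPM. Between days 3 and 5 MUT cells raised 8 members and lowered 11 (19.0% of all genes rose and 20.7% fell). Acss2 (1.46 ± 0.20, adjusted p = 1.56e-06), Scd2 (0.67 ± 0.11), Npc2 (0.61 ± 0.10) and Hmgcs1 (0.45 ± 0.07) rose, and Abcg1 (-1.85 ± 0.20, adjusted p = 7.07e-08), Mvk (-0.95 ± 0.14), Fasn (-0.56 ± 0.12) and Sqle (-0.37 ± 0.08) fell.

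**Figure D4:**
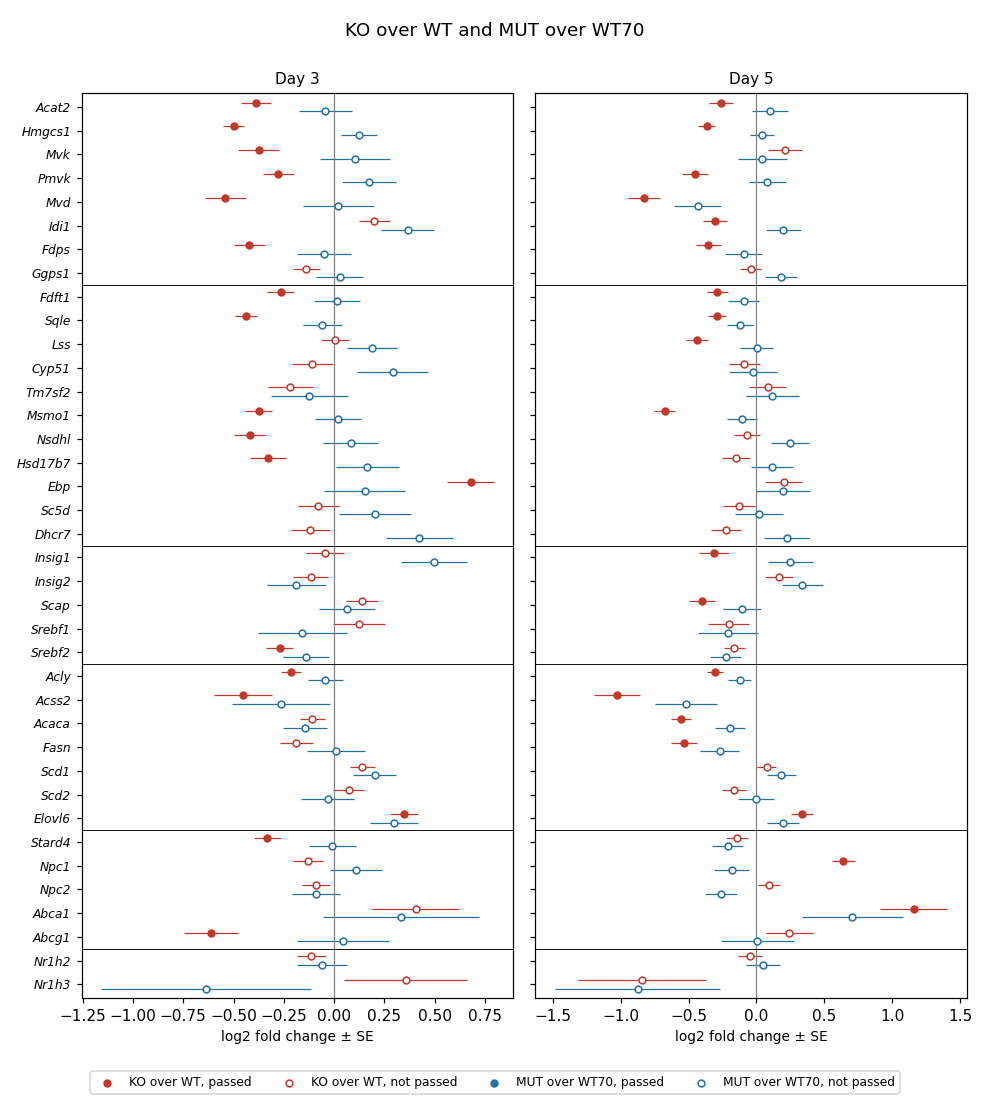
Log2 fold change (± SE) of KO over WT (red) and of MUT over WT70 (blue) for the 38 members on days 3 and 5, with filled points where the adjusted p was under 0.05. No MUT point is filled, and Hmgcs1 shows the pair of effects that differed on both days.

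Levels between genes were compared as TPM, which is scaled by transcript length. In WT cells of day 3 Fdps was the highest member at 328.0 ± 12.7 TPM (SD, n = 4), followed by Scd2 at 221.0 ± 18.6, Msmo1 at 178.0 ± 11.0 and Fasn at 160.0 ± 14.7 TPM. Hmgcs1 (141.0 ± 10.3 TPM), Dhcr7 (141.0 ± 32.7 TPM) and Acly (132.0 ± 5.87 TPM) did not differ beyond their spread. The 4 lowest were Abcg1 (4.42 ± 0.738 TPM), Acss2 (2.63 ± 0.513 TPM), Nr1h3 (0.709 ± 0.277 TPM) and Abca1 (0.199 ± 0.0356 TPM).

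Of 29 other lipid genes listed as context, 28 were tested. In KO against WT cells 3 rose and 5 fell on day 3 (6.25% and 9.50% of all tested genes), and 4 rose and 9 fell on day 5 (15.0% and 16.2%). Acsl4, which activates arachidonic acid, fell on both days (-0.63 ± 0.05, adjusted p = 1.24e-09, and -0.56 ± 0.06, adjusted p = 3.45e-08). Acsl3 rose (0.82 ± 0.09, adjusted p = 4.35e-07) and Fads1, a desaturase of polyunsaturated fatty acids, fell (-0.52 ± 0.07, adjusted p = 3.32e-06) on day 3. On day 5 Mylip, an LXR target that encodes a ubiquitin ligase, rose (1.50 ± 0.17, adjusted p = 1.09e-07) and Elovl5 fell (-0.49 ± 0.07, adjusted p = 4.62e-06). In MUT against WT70 cells Soat1, which esterifies cholesterol (-0.48 ± 0.08, adjusted p = 0.00136), and Nfyc, a subunit of NF-Y (0.52 ± 0.10, adjusted p = 0.00474), passed on day 5.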

How the data were processed

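Single-end stranded mRNA libraries of 36 samples in 16 groups and 3 experiments had been quantified by the authors with Salmon 0.14.1 after trimming with Trim Galore 0.6.4, per the labels and methods, and the deposited tables hold estimated counts and TPM per gene for each sample (54281 genes). Estimated counts were rounded to whole numbers and fitted with edgeR 4.0.16 in R 4.3.3: TMM size factors, genes kept at a minimum count of 10 and a minimum total of 15 (21601 genes), 16 group means and a term for the second experiment (19 residual degrees of freedom), and quasi-likelihood tests with Benjamini-Hochberg adjustment over all tested genes. CPM values use the same size factors. Libraries of a genotype and day come from separate cell lines or experiments. The term for the second experiment takes out its mean shift, and the spread was estimated over all groups together. On days 3 and 5 a line sampled in both experiments counts as 2 libraries, so p-values do not measure the spread between independent lines. Depth was 10139305 to 26307179 counts a library. The members, lists, named-gene rule and tests were chosen with earlier results of these data known. The named members are 12 followed in KO against WT on days 3 and 5 (Hmgcs1, Sqle, Insig1, Stard4, Srebf1, Srebf2, Fasn, Scd1, Scd2, Abca1, Abcg1, Npc1) and up to 4 in each direction with the smallest p among those that passed. Mvd and Msmo1 promoters, and those of Hmgcs1 and Acss2, were picked after values were seen. Alternatives were DESeq2 1.42.0, limma 3.58.1 on log2(TPM + 1) (TPM of at least 1 in at least 2 libraries), RLE size factors, no filter, no experiment term, each experiment alone, the compared libraries alone, a replicate block of cell line, a fold limit and leaving out each library. A cell line is the same on every day of a genotype, which pairs its days. Differences between the lines correlated between days by -0.0729 to 0.0616 over all tested genes and by -0.404 to 0.503 over the 38 members. More of the values over the members were positive than negative, and the main fit did not pair the days of a line. Promoter windows came from RefSeq (GRCm38.p6), and motifs were matched with Python.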

Additional observations from a re-analysis of the deposited data

Results flagged for a closer look

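Among 76 sets of 4 libraries (38 members in KO and WT cells of day 3), 3 held a library far from the other 3. KO replicate 4 had 37.06 CPM of Mvk, WT replicate 1 had 83.04 CPM of Npc1 and WT replicate 4 had 118.5 CPM of Npc2. Chance gives about 1 in 20 such sets.

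The change between days 0 and 3 differed between KO and WT cells by the interaction test in 11 members, and the values are log2 differences of KO minus WT. They were -0.50 for Acat2, -0.65 for Hmgcs1, -0.68 for Mvd, -0.51 for Fdps, -0.42 for Fdft1, -0.56 for Sqle, -0.57 for Msmo1, 0.71 for Ebp, -0.51 for Srebf2, -0.68 for Scd1 and -0.64 for Stard4. The change between days 3 and 5 differed in 9 members: 0.58 for Mvk, -0.51 for Idi1, -0.44 for Lss, -0.30 for Msmo1, 0.35 for Nsdhl, -0.54 for Scap, -0.45 for Acaca, 0.77 for Npc1 and 0.85 for Abcg1.

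The KO effect differed from the MUT effect by -0.62 for Hmgcs1 on day 3, and by -0.41 for Hmgcs1, -0.57 for Msmo1 and 0.82 for Npc1 on day 5.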

How the results depend on the processing

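Numbers of members called moved by over 1.5 times with a fold limit, with limma on TPM and with fewer libraries, and with the other alternatives given here. For limma and the other changes of method the cause was not tested. The share of all tested genes that passed was counted only in the main fit, so the counts of other fits have no background beside them. With a log2 fold change beyond 1 also required, 0 members passed in KO against WT cells on days 0, 1, 2, 3 and 4 and 2 on day 5. With that limit 13, 7, 19 and 3 passed in WT cells (day 1 over 0, 3 over 1, 3 over 0, 5 over 3), 8, 3, 12 and 3 in KO cells, 3 in MUT cells (day 5 over 3), and 0 in both interactions, both differences from the MUT effect and the experiment comparison. By limma on TPM the counts were 1, 1, 1 and 9 for KO against WT on days 0, 1, 2 and 3, 15 for KO day 1 over 0, 4 and 5 for the interactions of days 0 to 3 and 3 to 5, 8 for MUT day 5 over 3, 1 for the day 5 difference from MUT and 8 for the experiment comparison. Dhcr7 turned direction there, at -0.11 for KO day 5 over day 3 (adjusted p = 0.648). By DESeq2 they were 5 on day 2, and 2 and 5 for the differences from MUT on days 3 and 5. Without the experiment term, 1 passed on day 1 and 1 on day 2. The replicate block of cell line gave 1 on day 1 and changed no other count beyond 1.5 times. Without a filter, 1 passed in MUT against WT70 on each day and 4 in the day 3 difference. With all WT libraries as control, MUT gave 1 and 7.

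The first experiment alone gave 5 on day 0. The second alone gave 1, 3 and 9 for KO against WT on days 1, 3 and 5, 14 for WT day 5 over 3 and 4 for the interaction of days 3 to 5. The compared libraries alone gave 0, 1 and 16 on days 1, 2 and 4. They also raised the counts for MUT against WT70 and for the day 3 difference, where WT70 has a single library and no spread of its own. Leaving out 1 library gave 1 to 2, 1 to 5 and 1 to 3 on days 0, 1 and 2, 6 to 11 for the interaction of days 0 to 3 and 1 to 6 for the day 5 difference. Depth and library number limit the precision: standard errors of the members ran from 0.0718 to 0.552 on day 0, with 2 libraries a genotype, and from 0.0506 to 0.305 on day 3, with 4.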
